A study of Mus musculus with 24 samples.

Results

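Hnf4a, Foxa1, Foxa2, Foxa3, Gata4, Gata6 and Sox17, 7 transcription factor genes with established roles in endoderm, were followed through whole mouse embryos and yolk sacs carrying mutant alleles of Setd2. They were taken by gene symbol, and each symbol had 1 row in both deposited tables, so that 7 of the 55421 genes listed were examined. Endoderm arises in the mouse in an early wave, which forms the visceral and parietal endoderm outside the embryo, and a later wave, which forms the gut tube. In the yolk sac the visceral endoderm is an absorptive epithelium that secretes apolipoproteins and serum proteins. GATA6, GATA4 and SOX17 act early in the first wave, the FOXA proteins bind closed chromatin and help to open it for other factors, and HNF4A drives the mature, secretory state of the epithelium. None of the 7 is restricted to endoderm: Foxa2 and Foxa1 are also used in the notochord and floor plate, Gata4 and Gata6 in the heart, and Sox17 in arterial endothelium.

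Polyadenylated RNA was sequenced from C57BL/6 mice at embryonic day 9.5. Setd2 encodes the enzyme that trimethylates lysine 36 of histone H3. In the catalytic dead (CD) line the labels give homozygous (HO), heterozygous (HE) and wild-type (WT) animals for an allele named for a lost methyltransferase activity, and in the null line they give HO, HE and WT animals for an allele named for a lost gene product. Each of the 6 groups had 2 embryo libraries and 2 yolk sac libraries, 24 in all, and no other allele, Cre driver or treatment is named. How many animals entered a library, and whether an embryo and a yolk sac with the same number came from 1 conceptus, is not stated. The p-values therefore reflect the variation among these samples alone, and part of it may be technical.

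The total count per library ranged over 23414255 to 27674831 for embryos and 16400137 to 22113787 for yolk sacs. Setd2 itself was lowest in null HO embryos (93.3 and 104 CPM, against 169 and 157 in null HE and 232 and 229 in null WT), where CPM is the count scaled to the library total after TMM adjustment. In CD embryos it lay between 213 and 255 CPM in every genotype. In null yolk sacs the level did not follow the labels: it was 75.6 and 78.9 CPM in HO, 114 and 120 in HE and 102 and 114 in the libraries labelled WT, whose level was not above that of HE. In CD yolk sacs Setd2 lay between 170 and 194 CPM in every genotype. By Setd2, WT and heterozygous cannot be told apart for these null libraries, so they are called the libraries labelled WT, and a comparison with them may set HO against HE. Transcripts that mark sex differed between groups. In embryos, both CD HO libraries were of female type, CD HE had 1 library of each type and both CD WT libraries were of male type. Null HO embryos had 1 of each, both null HE embryos were of male type and both null WT embryos of female type. In yolk sacs, both CD HO libraries were of male type and both CD WT libraries of female type, and CD HE replicate 2 held both Xist (897 CPM) and the Y-linked Ddx3y (88.3 CPM). Null HO and null HE yolk sacs had 1 of each, and both libraries labelled WT were of female type. Some embryo libraries stood apart in transcripts of another tissue. CD WT replicate 2 held a summed 2100 CPM over 32 visceral endoderm genes, against 949 CPM in CD WT replicate 1. Null HO replicate 2 held a summed 98 CPM over 10 primitive erythroid genes, against 1370 CPM in null HO replicate 1, 2880 and 3330 in null HE and 2160 and 3190 in null WT.

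All 7 genes passed the filter on low counts in every fit. Positions are from the GENCODE M21 annotation of mm10, and all 7 are protein-coding genes. Hnf4a (ENSMUSG00000017950) lies on the plus strand at chr2:163506808-163572910, Foxa2 (ENSMUSG00000037025) on the minus strand at chr2:148042877-148046969, Foxa1 (ENSMUSG00000035451) on the minus strand at chr12:57540628-57546916, and Foxa3 (ENSMUSG00000040891) on the minus strand at chr7:19013284-19023538.

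RefSeq promoter windows (GRCm38.p6, the assembly called mm10) were at hand for 4 of the 7 genes: Hnf4a, Foxa1, Foxa2 and Foxa3. Those of Hnf4a, Foxa2 and Foxa3, which had the largest log2 differences of yolk sac over embryo, are printed as the 250 bases before the start, 5′ to 3′ on the gene's strand, with Hnf4a at both of its starts and Foxa2 at all 3 of its starts. As background, the upstream Hnf4a promoter is the one known from pancreas and the downstream one from adult liver; the gene-level counts do not separate them. Capitals mark matches to any of 6 short motifs, searched on both strands: TGTTTAC and TGTTTGC of the FOX factors, AGATAA and TGATAA of the GATA factors, CAAAGTCC of HNF4A and ACAATG of SOX factors.
Hnf4a upstream start, plus strand, chr2:163506607-163506856: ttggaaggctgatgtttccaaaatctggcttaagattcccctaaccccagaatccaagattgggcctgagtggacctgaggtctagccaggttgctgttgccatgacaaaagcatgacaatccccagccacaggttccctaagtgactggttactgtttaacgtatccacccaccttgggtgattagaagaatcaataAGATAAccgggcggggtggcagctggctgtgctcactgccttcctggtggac
Hnf4a downstream start, plus strand, chr2:163546905-163547154: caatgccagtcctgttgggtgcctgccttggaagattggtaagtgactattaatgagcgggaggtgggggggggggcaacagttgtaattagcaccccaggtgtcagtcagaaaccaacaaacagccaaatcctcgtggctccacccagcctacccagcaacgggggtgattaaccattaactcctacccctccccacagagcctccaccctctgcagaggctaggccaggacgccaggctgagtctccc
Foxa2 outermost start, minus strand, chr2:148046970-148047219: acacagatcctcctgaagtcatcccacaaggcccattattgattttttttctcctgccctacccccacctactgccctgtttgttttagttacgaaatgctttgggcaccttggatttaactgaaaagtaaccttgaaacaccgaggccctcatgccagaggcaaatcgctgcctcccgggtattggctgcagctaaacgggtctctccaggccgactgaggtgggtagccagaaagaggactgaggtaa
Foxa2 middle start, minus strand, chr2:148045949-148046198: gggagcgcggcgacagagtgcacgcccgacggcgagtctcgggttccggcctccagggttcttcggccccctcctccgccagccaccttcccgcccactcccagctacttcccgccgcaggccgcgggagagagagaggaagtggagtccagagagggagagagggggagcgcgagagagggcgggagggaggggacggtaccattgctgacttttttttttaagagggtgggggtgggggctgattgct
Foxa2 innermost start, minus strand, chr2:148045465-148045714: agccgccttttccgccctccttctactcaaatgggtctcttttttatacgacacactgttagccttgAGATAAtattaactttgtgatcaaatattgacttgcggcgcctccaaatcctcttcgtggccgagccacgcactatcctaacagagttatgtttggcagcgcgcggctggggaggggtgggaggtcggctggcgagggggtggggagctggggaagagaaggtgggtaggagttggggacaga
Foxa3, minus strand, chr7:19023540-19023789: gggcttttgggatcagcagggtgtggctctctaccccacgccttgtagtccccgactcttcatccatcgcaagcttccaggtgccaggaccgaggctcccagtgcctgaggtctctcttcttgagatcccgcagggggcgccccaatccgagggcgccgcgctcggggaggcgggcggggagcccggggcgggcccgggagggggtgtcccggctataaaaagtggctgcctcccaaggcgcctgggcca
The upstream Hnf4a window held 1 match, AGATAA at bases -52 to -47 counted from the start, a motif found in 9.99% of the 32817 promoter windows of this length. The window of the innermost Foxa2 start held the same motif at bases -183 to -178. Neither match overlapped another, and the other 4 printed windows held 0 matches to these letters. The Foxa1 window, not printed, held TGTTTAC on the opposite strand at bases -141 to -135. Among all windows, TGTTTAC was found in 3.16%, TGTTTGC in 4.3%, TGATAA in 7.95%, CAAAGTCC in 1.2% and ACAATG in 10.7%.

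Gata4 (ENSMUSG00000021944) lies on the minus strand at chr14:63198922-63271692, Gata6 (ENSMUSG00000005836) on the plus strand at chr18:11052064-11085635 and Sox17 (ENSMUSG00000025902) on the minus strand at chr1:4490931-4497354. An antisense gene, Hnf4aos, overlaps Hnf4a, 1010001N08Rik runs antisense over the start of Gata6, and Gm37587 runs antisense over Sox17. The strand setting of the counting is not stated, and reads from the genes of a pair cannot be told apart. The partners' own levels were low: Hnf4aos was at 0 CPM in all 12 embryos and at 0.196 to 1.3 CPM in yolk sacs, 1010001N08Rik reached 6.46 CPM in embryos and 2.65 CPM in yolk sacs, and Gm37587 reached 0.335 CPM.

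In libraries labelled WT, Hnf4a, Foxa3, Foxa2, Gata4 and Sox17 were higher in yolk sac than in embryo, Foxa1 was lower, and Gata6 did not pass the test. Of all genes tested, 71.7% passed in this comparison, against 6 of the 7. Levels per transcript length are given as FPKM (the count scaled to transcript length and library total), which allow genes to be compared within a library. Hnf4a, the nuclear receptor of the secretory epithelium, was at 103 and 87.2 FPKM in CD WT yolk sacs and 101 and 86.4 FPKM in the null yolk sacs labelled WT, against 0.607 and 2.05 FPKM in CD WT embryos and 0.281 and 0.2 FPKM in null WT embryos. The groups did not overlap, and the log2 difference was 7.70 (SE 0.296, edgeR adjusted p = 2.15e-14). Foxa3, the FOXA gene with the best-known part in liver metabolism, was at 8.86, 7.43, 9.28 and 9.25 FPKM in the 4 yolk sacs labelled WT and 0.572, 0.539, 0.248 and 0.606 FPKM in the 4 WT embryos, with a log2 difference of 4.47 (SE 0.229, edgeR adjusted p = 1.52e-12).

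Foxa2 and Gata4 were present in both tissues and higher in yolk sac without overlap. Foxa2 was at 12.4, 11.1, 12.5 and 12.3 FPKM in yolk sacs labelled WT against 3.83, 4.69, 3.32 and 2.7 FPKM in WT embryos (log2 difference 2.07, SE 0.121, edgeR adjusted p = 1.09e-11). Gata4 was at 25.1, 20.1, 23.6 and 20.1 FPKM in yolk sacs labelled WT against 8.44, 11, 7.67 and 7.43 FPKM in WT embryos (log2 difference 1.69, SE 0.128, edgeR adjusted p = 5.39e-10). Foxa1 went the other way: its 1.57, 1.18, 1.37 and 1.51 FPKM in yolk sacs labelled WT lay below the 4.32, 6.68, 3.69 and 3.63 FPKM of WT embryos (log2 difference -1.36, SE 0.302, edgeR adjusted p = 0.00053). Within the FOXA family the tissue difference therefore had both signs.

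Gata6 was at 4.05, 3.5, 3.97 and 3.93 FPKM in yolk sacs labelled WT against 5.62, 6.08, 4.55 and 4.65 FPKM in WT embryos. These FPKM ranges did not overlap, while the log2 difference after TMM scaling of the counts was -0.11 (SE 0.109, edgeR adjusted p = 0.371). With library totals in place of TMM scaling, which moved the median difference of all genes to -0.393 from -0.078, Gata6 was at -0.43 and passed. Sox17 was at 1.66, 1.29, 1.87 and 2.22 FPKM in yolk sacs labelled WT and 1.73, 1.85, 1.61 and 1.04 FPKM in WT embryos, and these ranges overlapped. Its log2 difference of 0.49 (SE 0.172, edgeR adjusted p = 0.0165) was 0.17 with library totals and 0.03 in the CD line alone. It was also lost without null embryo WT replicate 2 (0.34), CD embryo WT replicate 1 (0.45), the null yolk sac labelled WT replicate 2 (0.43) or CD yolk sac WT replicate 1 (0.38). In the CD line alone, which leaves out the null yolk sacs labelled WT, 5 of the 7 passed (Hnf4a, Foxa1, Foxa2, Foxa3 and Gata4), with 61.5% of all genes past the threshold. In that line both WT yolk sacs were of female type and both WT embryos of male type, so sex and tissue cannot be told apart there. The tissue cannot be told apart from any difference in the handling of the 2 sets of libraries.

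Markers of the tissues moved with these values. All 32 visceral endoderm genes tested were higher in the yolk sacs labelled WT (median log2 difference 6.77), 15 of 16 cardiac genes and 11 of 12 floor plate and notochord genes were lower, and 8 of 19 other endoderm-linked regulators were higher and 8 lower. The median over all genes was -0.08, and 71.7% of them passed. The lists used here and below are not disjoint: 12 genes stand in more than 1, among them Krt8, Krt18 and Epcam (visceral endoderm and gut), Cdx2 and Pdx1 (other regulators and gut), Sox7 and Shh, and their repeats are not separate support. In bulk samples, fewer cells of a type and less RNA per cell cannot be told apart.

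Over all 12 yolk sac libraries the order of levels by median was Hnf4a (73.9 to 103 FPKM), Gata4 (15.8 to 29), Foxa2 (10.6 to 17), Foxa3 (6.39 to 12.5), Gata6 (2.45 to 4.57), Sox17 (1.01 to 4.42) and Foxa1 (1.04 to 4.4). Only Hnf4a, and the step from Foxa3 to Gata6, were separated from their neighbours by non-overlapping ranges. In the 12 embryo libraries the order was Gata4 (7.33 to 13.3 FPKM), Gata6 (4.07 to 6.99), Foxa2 (2.7 to 7.02), Foxa1 (3.22 to 6.68), Sox17 (1.04 to 2.28), Foxa3 (0.158 to 0.802) and Hnf4a (0.0619 to 2.05). Gata4 stood apart at the top, the next 3 overlapped, Sox17 lay below them and above Foxa3 without overlap, and Hnf4a overlapped both Sox17 and Foxa3. Hnf4a was thus the most abundant of the 7 in yolk sacs and, by its median, the least abundant in whole embryos.

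**Figure D1:**
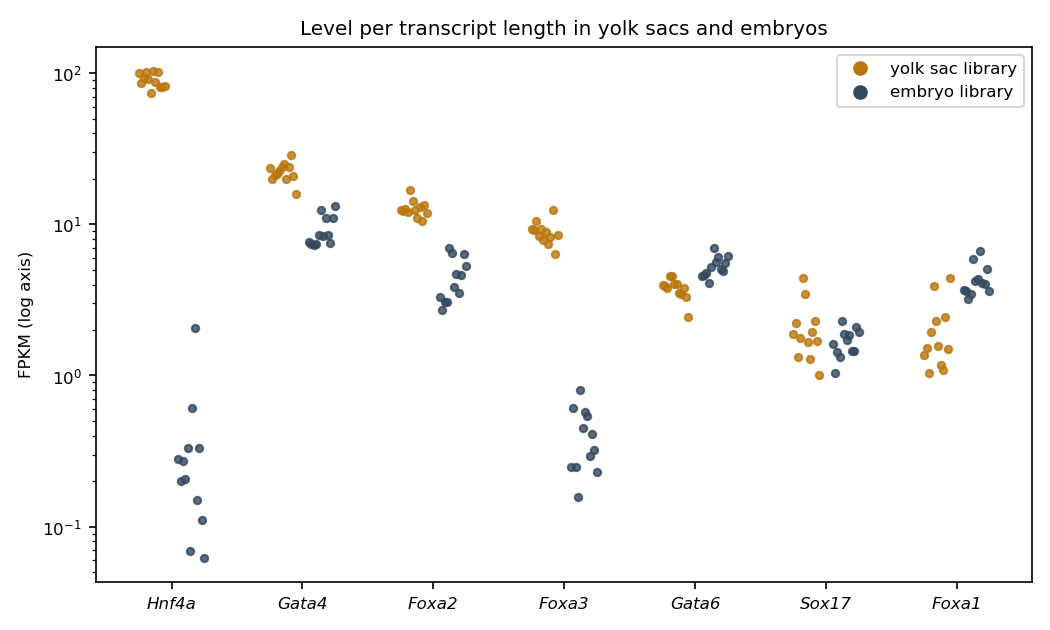
FPKM on a log axis for each factor, with yolk sac libraries (left of each pair, brown) and embryo libraries (right, dark blue), 12 points each. Hnf4a lies at 73.9 to 103 FPKM in yolk sacs and 0.0619 to 2.05 in embryos, while Foxa1 and Gata6 do not lie higher in yolk sacs.

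In embryos the FOXA, GATA and Sox17 genes rose in null HO over HE, 4 of them also over WT, while in CD HO over WT the gene past the test was Hnf4a, which fell. Against null WT, 4 of the 7 rose in null HO embryos (Foxa2, Sox17, Gata4 and Gata6) and none fell, with 32.7% of all genes past the threshold of 0.05 in this comparison. Leaving out any 1 of these libraries lowered this number. Fitting these groups alone gave 1, Foxa2, with 24.2% of all genes, so that Sox17 (0.67), Gata4 (0.49) and Gata6 (0.43) did not pass there. Against null HE, 6 of the 7 rose in null HO, all but Hnf4a, with 30.3% of all genes past the threshold. In CD HO embryos 1 of the 7 fell against CD WT and none rose, with 16.1% of all genes past the threshold, and 2 rose against CD HE (Gata4 and Foxa2), with 22.1%. The median log2 change of the 7 was 0.50 in null HO over WT and -0.02 in CD HO over WT, beside medians of 0.01 and 0.00 over all genes tested.

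**Figure D2:**
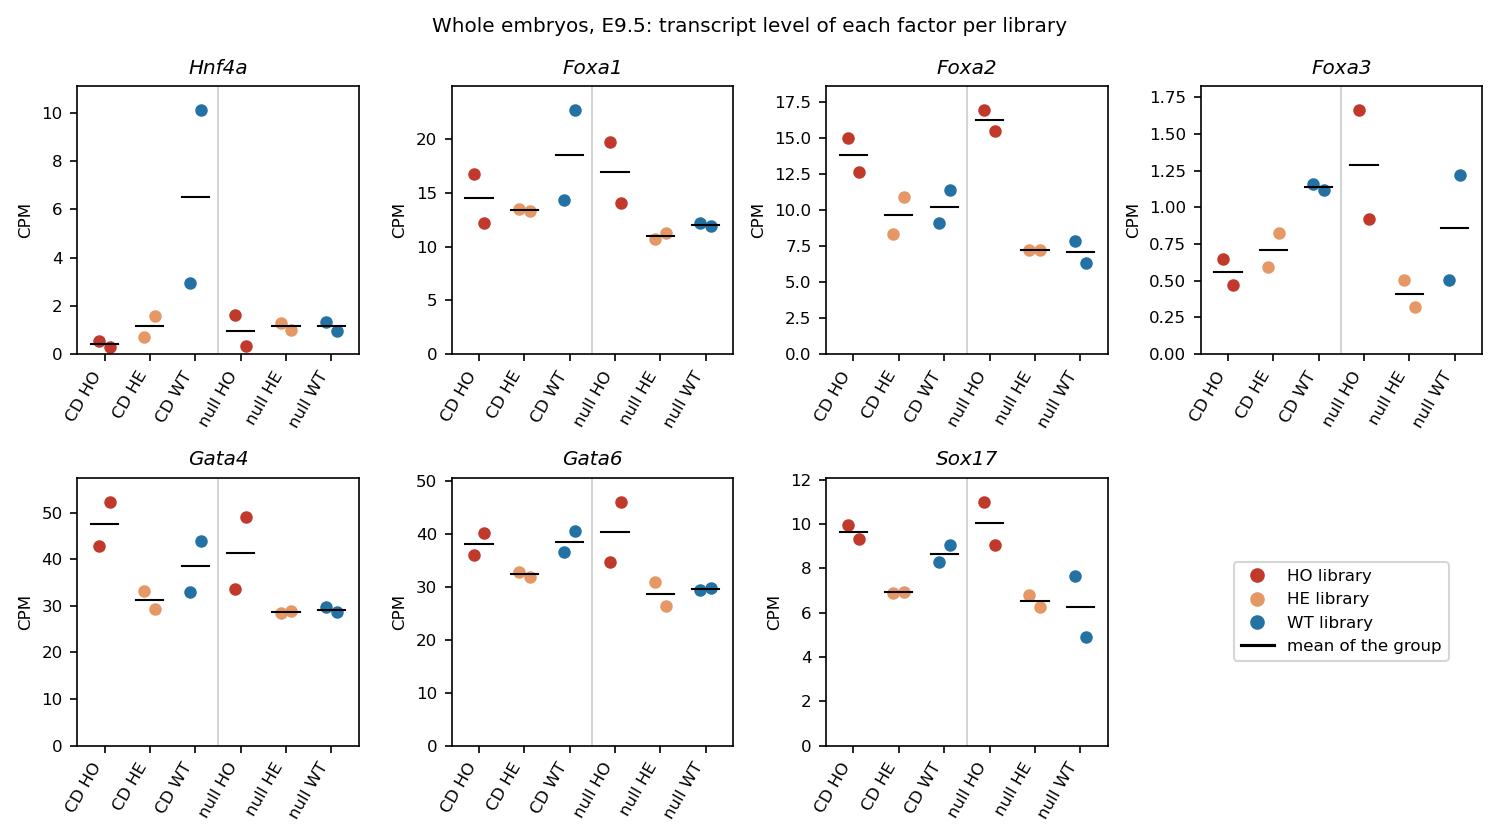
CPM of each factor in the 12 embryo libraries, 2 points per group and a line at the group mean; CD groups left, null groups right, each in the order HO, HE, WT. Foxa2 is at 15.5 and 16.9 CPM in null HO against 6.31 and 7.84 in null WT, and Hnf4a reaches 10.1 CPM in 1 CD WT library.

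Foxa2, needed for the node, notochord and anterior endoderm, was the member with the largest rise in null HO over WT embryos. It was at 15 and 12.6 CPM in CD HO, 8.36 and 10.9 CPM in CD HE and 9.07 and 11.4 CPM in CD WT. In the null line it was at 16.9 and 15.5 CPM in HO, 7.23 and 7.24 CPM in HE and 7.84 and 6.31 CPM in WT. Both HO libraries lay above all HE and WT libraries of their own line in either line. The null HO rise was 1.19 on the log2 scale over WT (SE 0.168, edgeR adjusted p = 0.000277) and 1.16 over HE (SE 0.168, edgeR adjusted p = 0.000398), and both passed with any 1 of the libraries compared left out. In CD HO the change was 0.44 over WT (SE 0.165, edgeR adjusted p = 0.0956) and 0.52 over HE (SE 0.165, edgeR adjusted p = 0.0418). The rise over CD HE was lost without CD HE replicate 1 (0.34), CD HO replicate 1 (0.38) or CD HO replicate 2 (0.63). For Foxa2 the CD effect minus the null effect was -0.76 (SE 0.236, edgeR adjusted p = 0.245), so the lines were not shown to differ.

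Foxa1, which acts beside Foxa2 in gut and floor plate, was at 16.8 and 12.2 CPM in CD HO, 13.5 and 13.3 in CD HE and 14.4 and 22.7 in CD WT. It was at 19.8 and 14.1 CPM in null HO, 10.7 and 11.3 in null HE and 12.2 and 11.9 in null WT. The null HO libraries were above the other null libraries. In the CD line HO overlapped both HE and WT, and HE lay below WT. Over null HE the rise was 0.63 (SE 0.216, edgeR adjusted p = 0.0451), and was lost without null HE replicate 1 (0.58), null HE replicate 2 (0.67) or null HO replicate 1 (0.36). Over null WT the change was 0.49 (SE 0.214, edgeR adjusted p = 0.0967), which passed without null HO replicate 2 (0.70). Foxa3 had 8 to 43 reads per embryo library. It was at 1.66 and 0.923 CPM in null HO, 0.503 and 0.318 in null HE and 0.502 and 1.22 in null WT, so HO was above HE but overlapped WT. Its rise over HE was 1.65 (SE 0.474, edgeR adjusted p = 0.0206), lost without null HE replicate 1 (2.01), null HE replicate 2 (1.36) or null HO replicate 1 (1.15). In the CD line Foxa3 was at 0.651 and 0.472 CPM in HO, 0.597 and 0.827 in HE and 1.16 and 1.12 in WT, a change of -1.01 over WT that did not pass (SE 0.461, edgeR adjusted p = 0.159).

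Gata4 and Gata6, zinc finger factors shared by primitive endoderm and heart, were highest among null embryos in HO replicate 2. Gata4 was at 42.9 and 52.3 CPM in CD HO, 33.1 and 29.4 in CD HE and 32.9 and 44 in CD WT. In the null line it was at 33.6 and 49.1 CPM in HO, 28.5 and 28.8 in HE and 29.8 and 28.6 in WT. The rise in null HO over WT was 0.50 (SE 0.17, edgeR adjusted p = 0.0391), and without null HO replicate 2 it was 0.19 and did not pass. Dropping null WT replicate 1 (0.53) or replicate 2 (0.47) also lost the call. Over null HE it was 0.53 (SE 0.17, edgeR adjusted p = 0.0339), lost without either HE library (0.52 and 0.53) or without null HO replicate 2 (0.21). Over CD HE the rise in CD HO was 0.61 (SE 0.169, edgeR adjusted p = 0.0233), lost without CD HE replicate 1 (0.69), CD HE replicate 2 (0.52) or CD HO replicate 2 (0.45).

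Gata6 was at 35.9 and 40.1 CPM in CD HO, 32.8 and 31.8 in CD HE and 36.5 and 40.5 in CD WT, and its change over CD WT was -0.02. In the null line it was at 34.7 and 46 CPM in HO, 30.8 and 26.3 in HE and 29.4 and 29.8 in WT. The null HO rise was 0.44 over WT (SE 0.124, edgeR adjusted p = 0.0165), lost without either WT library (0.43 and 0.45) or HO replicate 2 of the null line (0.21), and 0.50 over HE (SE 0.125, edgeR adjusted p = 0.0101), lost without null HE replicate 2 (0.39) or null HO replicate 2 (0.27). The summed level of the 16 cardiac muscle genes was 1780 CPM in null HO replicate 1 and 2780 CPM in null HO replicate 2, against 1810 and 1740 CPM in null HE and 1850 and 1660 CPM in null WT. Replicate 2 was thus highest, as for both GATA genes, while replicate 1 lay within the HE and WT range, unlike both GATA genes. Among null embryos, HO replicate 2 was also highest in summed arterial and pan-endothelial genes (851 CPM) and trophoblast and decidual genes (109 CPM). All 16 cardiac genes were detected in every embryo. The same library, null HO replicate 2, was the one with 98 CPM of primitive erythroid transcripts. With a term for sex, the rises of Gata4 (0.29) and Gata6 (0.35) over null HE did not pass, nor did that of Gata4 over CD HE (0.39). Cardiac, endothelial, trophoblast and erythroid content and sex were not tested as sources of these values.

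Sox17, an HMG-box factor of definitive endoderm and arterial endothelium, was at 9.95 and 9.31 CPM in CD HO, 6.89 and 6.94 in CD HE and 8.27 and 9.04 in CD WT. It was at 11 and 9.06 CPM in null HO, 6.81 and 6.24 in null HE and 7.65 and 4.9 in null WT. In both lines the HO libraries lay above the HE and WT libraries of their line. The null HO rise was 0.68 over WT (SE 0.183, edgeR adjusted p = 0.0137), lost on dropping WT replicate 2 (0.39) or HO replicate 1 (0.53) of the null line. Over null HE it was 0.62 (SE 0.183, edgeR adjusted p = 0.0225), lost without null HE replicate 1 (0.68), null HE replicate 2 (0.56) or null HO replicate 1 (0.47). In the CD line the change was 0.155 over WT and 0.48 over HE, and neither passed (edgeR adjusted p = 0.61 and 0.0788).

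Hnf4a was scarce in embryos, with 7 to 243 reads per library. It was at 0.536 and 0.3 CPM in CD HO, 0.717 and 1.58 in CD HE and 2.93 and 10.1 in CD WT. The CD genotypes did not overlap, and the highest library, CD WT replicate 2, was the one rich in visceral endoderm transcripts. In the null line Hnf4a was at 1.62 and 0.335 CPM in HO, 1.31 and 0.994 in HE and 1.35 and 0.95 in WT, which overlapped. The fall in CD HO against WT was -3.93 (SE 0.712, edgeR adjusted p = 0.00353). It passed without CD WT replicate 2 (-2.79) and without any other of the libraries compared, but not with a term for sex (-2.11), and in this comparison CD HO and CD WT embryos differed in sex. Against CD HE the change was -1.45 (SE 0.824, edgeR adjusted p = 0.233). It passed with the compared groups fitted alone (-1.446) and without the filter on low counts (-1.459). The CD effect minus the null effect was -3.72 (SE 1.04, edgeR adjusted p = 0.196), and it passed without CD WT replicate 1 (-4.36).

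Many visceral endoderm genes fell with Hnf4a in CD HO against WT embryos, and the list did not move one way against CD HE. Of the 28 tested, 14 fell in CD HO against WT and 3 rose (median log2 change -1.83, beside 0.00 over all genes). Of all genes, 16.1% passed in this comparison. Those that fell included Afp at -4.87, Apoa1 at -6.58, Apob at -5.60 and Trf at -4.33, which encode alpha-fetoprotein, 2 apolipoproteins and transferrin. Those that rose were the keratin genes Krt18 and Krt19, at 0.40 and 0.75, and the endocytic receptor gene Lrp2, at 0.52. Without CD WT replicate 2, 9 fell and 7 rose, with Afp at -3.59, Apoa1 at -4.21, Apob at -3.32 and Trf at -3.66. Without CD WT replicate 1, 20 of 29 fell and 1 rose, and with the term for sex 2 of 28 fell and 1 rose. Apob was at 4.9 and 3 CPM in CD HO, 26.7 and 22.6 in CD HE and 39.5 and 347 in CD WT, so each genotype was separated. Of the 32 genes, 5 and 6 were at 0 in the CD HO libraries, 2 and 1 in CD HE and 1 and 0 in CD WT. In CD HO over HE, 8 of 28 rose and 3 fell (median log2 change 0.01), with 22.1% of all genes past the threshold. Hnf4a was at -1.45 there and passed only with the compared groups alone or without the filter. The summed level of the list was 1260 and 1300 CPM in CD HO, 876 and 803 in CD HE and 949 and 2100 in CD WT, so that HO lay between the WT libraries and above HE. Which endoderm these transcripts came from cannot be told apart in RNA of whole embryos, and its part in the Hnf4a value was not tested.

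In null embryos several epithelial genes of the same list rose. Of 28 tested, 10 rose in null HO over WT and 1 fell (median 0.56, beside 0.01 over all genes). Of all genes tested, 32.7% passed in this comparison, 3120 of them higher and 3168 lower. Krt18 was at 1.29, Krt8 at 1.34, Lrp2 at 1.34 and Epcam, an epithelial adhesion gene, at 0.83, while Trf fell by 1.97. Krt8 was at 255 and 297 CPM in null HO against 103 and 115 CPM in null WT. Without null HO replicate 1 the list's median was -0.02, with 9 rising and 2 falling, and without null HO replicate 2 it was 0.91, with 9 rising and 1 falling. Of 11 gut endoderm genes 8 rose and 1 fell in null HO over WT (median 0.83), with the hindgut regulator Cdx2 at 1.38. In CD HO embryos 6 of the 11 rose and 1 fell over HE (median 0.45), and 2 rose and 1 fell over WT (median 0.07). The shares of all genes past the threshold were 22.1% and 16.1% there.

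**Figure D3:**
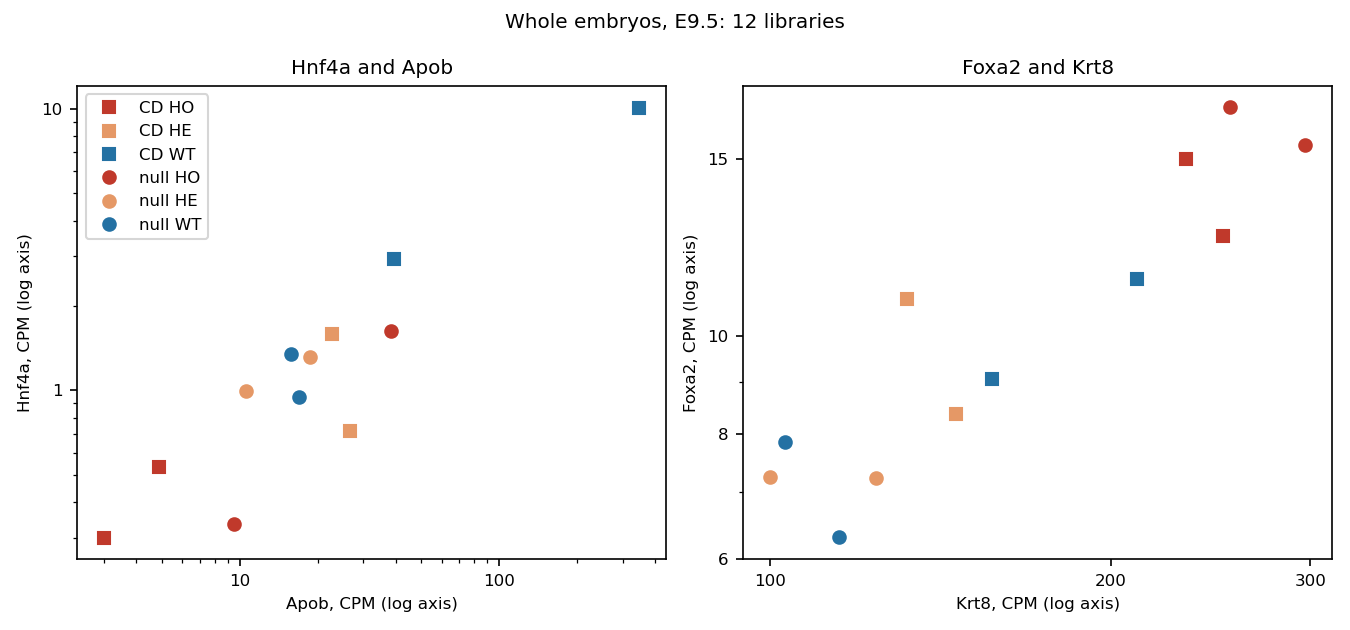
CPM on log axes in the 12 embryo libraries, squares for the CD line and circles for the null line: Hnf4a against Apob (left) and Foxa2 against Krt8 (right). CD WT replicate 2 lies alone at 347 CPM of Apob and 10.1 CPM of Hnf4a, and the 4 HO libraries hold the highest Foxa2 levels, 12.6 to 16.9 CPM.

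The other genes of the network moved in part with the members. Of 17 other endoderm-linked regulators tested, 7 rose in null HO over WT embryos and 2 fell (median 0.33). Of all genes, 32.7% passed in this comparison, 16.1% in CD HO over WT and 22.1% in CD HO over HE. Hhex, a homeobox gene of the anterior endoderm and liver bud, was at 1.18 and Cdx2 at 1.38. Cer1, which encodes a secreted inhibitor, was at -2.37. In CD HO over WT, 1 of the 17 rose and 1 fell (median -0.30): Otx2 at 0.43 and Cer1 at -3.45. Cer1 was low in counts, at 0.153 and 0.472 CPM in CD HO, 1.59 and 1.9 in CD HE and 2.53 and 4.25 in CD WT, and at 0.27 and 0.419 CPM in null HO, 2.44 and 1.83 in null HE and 1.97 and 1.6 in null WT. It was listed at 0 in every yolk sac, and its source in embryos was not tested. Of 8 relatives of the GATA and SOX17 genes and their cofactors, 4 rose in null HO over WT embryos and 0 fell, namely Gata3 at 0.99, Gata5 at 0.94, Sox7 at 0.81 and Gata2 at 0.69. Without null HO replicate 2, 1 of these 8 rose. In CD HO over WT 0 of the 8 passed, and over CD HE 4 rose.

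Floor plate and notochord genes, where Foxa2 and Foxa1 are also used, did not move one way in null HO over WT embryos. Of the 12, 4 rose and 2 fell (median -0.13). For all counts in this paragraph, the share of all genes past the threshold was 32.7% in null HO over WT. It was 16.1% in CD HO over WT. Nog and T, both expressed in the notochord, were at 1.02 and 0.73, Nkx6-1 at 0.68 and the floor plate gene Ntn1 at -0.60. In CD HO over WT 1 of the 12, Shh, fell (-0.60). In the parietal endoderm list 4 of 12 genes rose in CD HO over WT and 6 of 12 in null HO over WT, with 1 fall each, and cardiac genes rose in 0 of 16 in CD HO and 4 of 16 in null HO, where 1 fell. Without null HO replicate 1, 12 of the cardiac genes rose and 1 fell, and without null HO replicate 2, 2 rose and 2 fell. Of 16 arterial and pan-endothelial genes, a compartment that shares Sox17, 3 rose and 1 fell in null HO over WT. Primitive erythroid genes fell in 0 of 10 in CD HO over WT (median -0.82) and in 5 of 10 in null HO over WT (median -1.84). Trophoblast and decidual genes rose in 1 of 7 and 5 of 7 in the same comparisons. In CD HO over HE, 2 of the 10 erythroid genes fell (median -1.61), with 22.1% of all genes past the threshold. The summed erythroid level was 637 and 1670 CPM in CD HO, 2780 and 3830 in CD HE and 2400 and 1230 in CD WT. In null HO over WT without HO replicate 2, 1 arterial, 2 floor plate and notochord and 2 trophoblast genes rose and 1 erythroid gene fell. Without HO replicate 1, 5 arterial, 3 floor plate and notochord and 4 trophoblast genes rose, and all 10 erythroid genes and 4 floor plate and notochord genes fell.

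Heterozygous embryos were compared with WT in each line. By edgeR 0 of the 7 passed in CD HE against WT, where 0.0156% of all genes did and 1693 genes had an unadjusted p under 0.05, and by DESeq2 1 of the 7 passed, Hnf4a, with 0.276% of all genes. The change of Hnf4a was -2.48 (SE 0.608, edgeR adjusted p = 0.374), and it passed without CD WT replicate 1 (-3.12). In null HE against WT 0 of the 7 passed by either tool, where 0.0104% of all genes did by edgeR and 0.0416% by DESeq2, and 464 had an unadjusted p under 0.05. The CD effect minus the null effect in embryos passed for 0 of the 7, where 0.0208% of all genes did and 2580 had an unadjusted p under 0.05, and DESeq2 called 1 of the 7, Hnf4a, and 1.03% of all genes. Of the 7 themselves, 5 had an unadjusted edgeR p under 0.05 for this difference, 2 for CD HE against WT and 0 for null HE against WT. For Gata6 this difference was -0.46 and passed without null HO replicate 1 (-0.65), and for Foxa1 it was -0.85 and passed without CD WT replicate 1 (-1.14).

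In yolk sacs fewer of the 7 genes passed a test between genotypes. Against CD WT 0 of the 7 passed in CD HO by edgeR or DESeq2, which called 3.15% and 6.48% of all genes. Against CD HE 0 passed by edgeR and 1 by DESeq2, which called 3.86% and 7.13% of all genes. In null HO, 0 of the 7 passed against the libraries labelled WT by edgeR and 1 by DESeq2, which called 6.27% and 8.77% of all genes. In these 3 comparisons 2, 3 and 3 of the 7 had an unadjusted edgeR p under 0.05. Of all 17755 genes tested, 3560, 3706 and 3891 did. Against null HE 1 passed, Sox17, with 8.19% of all genes past the threshold. Replicates were less alike in this tissue: the biological coefficient of variation was 0.165 in yolk sacs and 0.087 in embryos.

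**Figure D4:**
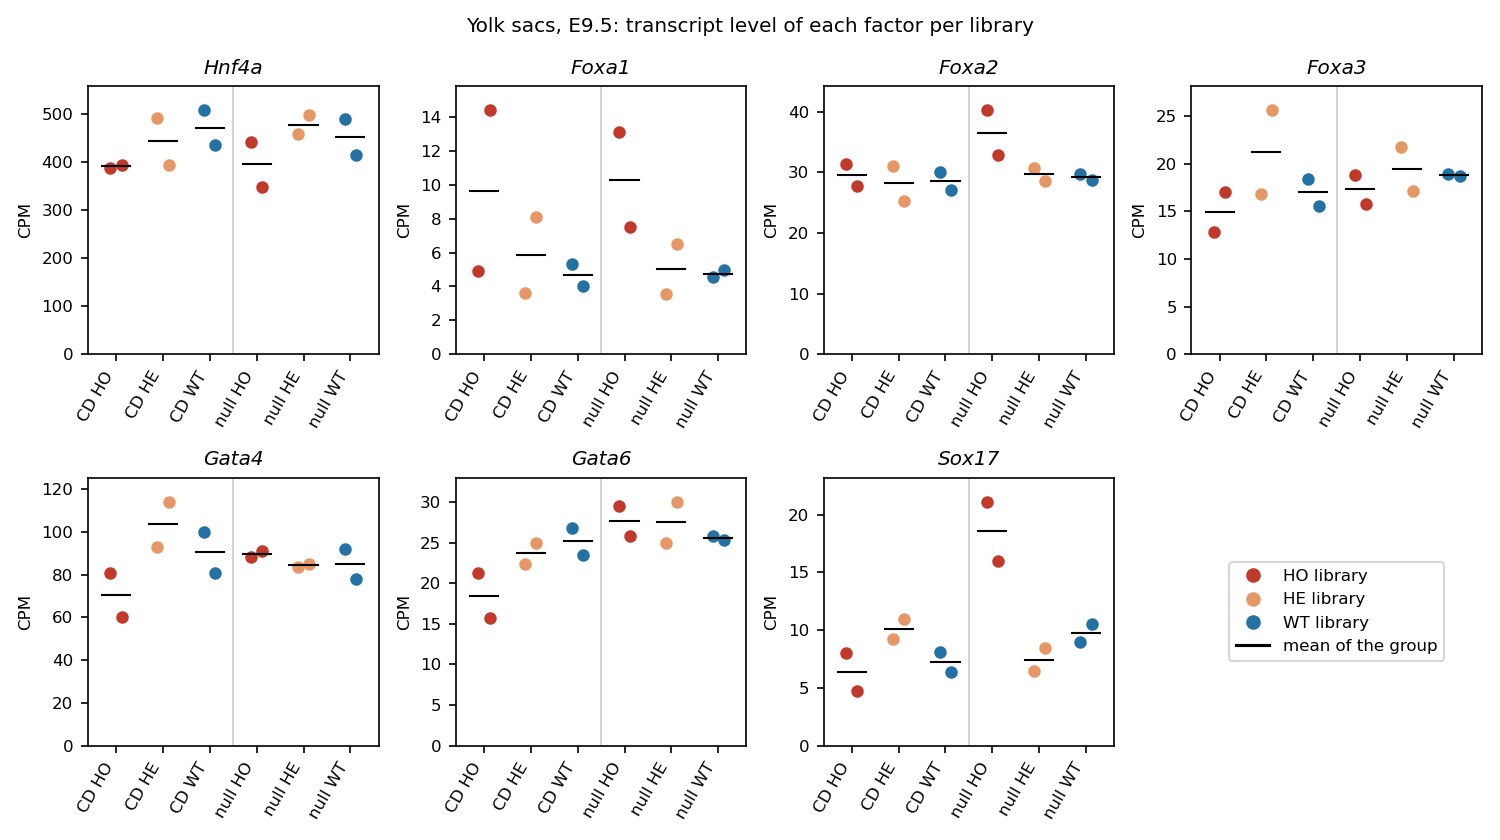
CPM of each factor in the 12 yolk sac libraries, 2 points per group and a line at the group mean; CD groups left, null groups right, each in the order HO, HE, WT as labelled. Sox17 is at 16 and 21.1 CPM in null HO and at most 11 CPM in all other groups, and Hnf4a lies between 348 and 507 CPM throughout.

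Sox17 was at 8 and 4.72 CPM in CD HO, 9.19 and 11 in CD HE and 8.08 and 6.38 in CD WT yolk sacs. It was at 21.1 and 16 CPM in null HO, 6.43 and 8.48 in null HE and 8.94 and 10.5 in the libraries labelled WT. Both null HO libraries stood above the other 10 yolk sacs. The rise over null HE was 1.315 on the log2 scale (SE 0.266, edgeR adjusted p = 0.0125), lost without null HE replicate 1 (1.11) or null HO replicate 1 (1.09). Over the libraries labelled WT the change was 0.94 (SE 0.263, edgeR adjusted p = 0.0569), which DESeq2 called. In CD HO the change was -0.175 over WT and -0.66 over HE, and neither passed. The CD effect minus the null effect was -1.11 (SE 0.378, edgeR adjusted p = 1), so the lines were not shown to differ.

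Markers of 2 compartments that use Sox17, parietal endoderm and arteries, were counted in the null libraries and then in the CD libraries. Of all genes, 8.19% passed in null HO over HE and 6.27% over the libraries labelled WT. In CD HO 3.86% passed over HE and 3.15% over WT. Of 12 parietal endoderm genes 8 rose in null HO over HE and 5 over the libraries labelled WT, with 0 falling. Their summed level was 6110 and 5310 CPM in null HO, 3690 and 3800 in null HE and 4020 and 4070 in the libraries labelled WT. Lama1, a laminin chain of the thick membrane that parietal cells lay down, was at 1.67 over the libraries labelled WT. Arterial and pan-endothelial genes fell in 3 of 16 in both comparisons, with the arterial connexin gene Gja5 at -5.80 over the libraries labelled WT, and their summed level was 478 and 578 CPM in null HO, 617 and 801 in null HE and 652 and 808 in the libraries labelled WT. In CD HO yolk sacs, where Sox17 did not rise, 3 of the 16 arterial genes fell over WT and 5 over HE, and 0 rose. Of the 12 parietal genes, 1 rose in CD HO over WT and 0 over HE, and 0 fell. The part of parietal or endothelial cells in the Sox17 value was not tested. In null HO over HE without HO replicate 1, 2 of 12 parietal genes rose and 1 of 16 arterial genes fell.

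Hnf4a, the most abundant of the 7 in yolk sac, was at 388 and 393 CPM in CD HO, 491 and 394 in CD HE and 507 and 435 in CD WT. In the null line it was at 442 and 348 CPM in HO, 457 and 497 in HE and 489 and 414 in the libraries labelled WT. The CD HO libraries lay below the other CD libraries, but the nearest values, 393 CPM in HO and 394 in HE, were almost equal. The change of Hnf4a in CD HO over HE was -0.18 (SE 0.143, edgeR adjusted p = 0.512). Null HO lay below null HE, and the libraries labelled WT overlapped both. Its changes over WT were -0.27 in CD HO (SE 0.143, edgeR adjusted p = 0.316) and -0.19 in null HO (SE 0.143, edgeR adjusted p = 0.473). Visceral endoderm genes fell in 5 of 31 in CD HO over WT and 0 rose. In null HO over the libraries labelled WT 7 of 31 fell and 0 rose. Of all genes, 3.15% and 6.27% passed in these comparisons. Cubn, the cubilin gene of the endocytic apparatus, was at -0.60 and Cdh1, which encodes E-cadherin, at -0.52 in CD HO, and they were at -0.65 and -0.61 in null HO. The summed level of the list was 37900 and 46900 CPM in CD HO, 53600 and 46300 in CD HE and 54800 and 50400 in CD WT, and 44000 and 39900 CPM in null HO, 59500 and 53400 in null HE and 55500 and 51600 in the libraries labelled WT.

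Foxa1 had the largest standard errors of the 7 in the yolk sac comparisons of HO with WT. It was at 4.93 and 14.4 CPM in CD HO, 3.6 and 8.12 in CD HE and 5.33 and 4.04 in CD WT, and at 13.1 and 7.51 CPM in null HO, 3.53 and 6.52 in null HE and 4.54 and 4.99 in the libraries labelled WT. Its change was 1.03 in CD HO over WT (SE 0.505, edgeR adjusted p = 0.28) and 1.11 in null HO (SE 0.503, edgeR adjusted p = 0.221). Foxa2 was at 31.3 and 27.8 CPM in CD HO, 31 and 25.3 in CD HE and 30 and 27.1 in CD WT, which overlapped. In null HO it was at 40.2 and 32.8 CPM, above the 30.7 and 28.6 CPM of HE and the 29.7 and 28.8 CPM of the libraries labelled WT, a change of 0.32 over the libraries labelled WT that did not pass (SE 0.146, edgeR adjusted p = 0.223). Foxa3 was at 12.8 and 17 CPM in CD HO, 16.8 and 25.6 in CD HE and 18.4 and 15.6 in CD WT, and between 15.8 and 21.8 CPM in null yolk sacs.

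Gata4 and Gata6 were lower in CD HO yolk sacs without passing the test. Gata4 was at 80.7 and 60.4 CPM in CD HO, 92.9 and 114 in CD HE and 100 and 80.9 in CD WT. Its change was -0.55 over CD HE (SE 0.154, edgeR adjusted p = 0.0685), which DESeq2 called, and it passed in edgeR without CD HO replicate 1 (-0.78). Gata6 was at 21.2 and 15.7 CPM in CD HO, 22.4 and 24.9 in CD HE and 26.8 and 23.5 in CD WT, a change of -0.45 over WT (SE 0.168, edgeR adjusted p = 0.162). Both CD HO libraries were below the other CD libraries for each gene, but for Gata4 the nearest values, 80.7 and 80.9 CPM, were almost equal. The change of Gata4 in CD HO over WT was -0.36 (SE 0.154, edgeR adjusted p = 0.222). In null yolk sacs Gata4 lay between 78 and 92.1 CPM and Gata6 between 25 and 30 CPM. For Gata4, null HO (88.3 and 90.8 CPM) lay above null HE (83.6 and 85 CPM) and within the range of the libraries labelled WT (92.1 and 78 CPM), and for Gata6 the null HE libraries spanned the others. Of the 8 GATA and SOX relatives, Gata3 and Gata2 rose in null HO over the libraries labelled WT (1.93 and 0.79). Gata3 rose in CD HO over WT (1.55). The shares of all genes past the threshold were 6.27% and 3.15% in these comparisons.

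Among 14 other endoderm-linked regulators tested in yolk sac, 0 rose and 2 fell in null HO over the libraries labelled WT. These were the bile acid receptor gene Nr1h4 at -1.35 and Pdx1 at -2.94. In CD HO over WT 0 of the 14 passed. The shares of all genes were 6.27% and 3.15%. Heterozygous yolk sacs gave 0 of the 7 past the test in CD HE against WT and 0 in null HE against the libraries labelled WT, by edgeR and by DESeq2. Of all genes 0% passed in either comparison by edgeR, where 665 and 360 had an unadjusted p under 0.05, 0 of the 7 among them in either, and DESeq2 called 7 and 2 genes (0.0394% and 0.0113%). The CD effect minus the null effect passed for 0 of the 7 by either tool, where 0.0282% of all genes passed by edgeR and 0.0732% by DESeq2, and 588 had an unadjusted p under 0.05, 2 of the 7 among them.

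**Figure D5:**
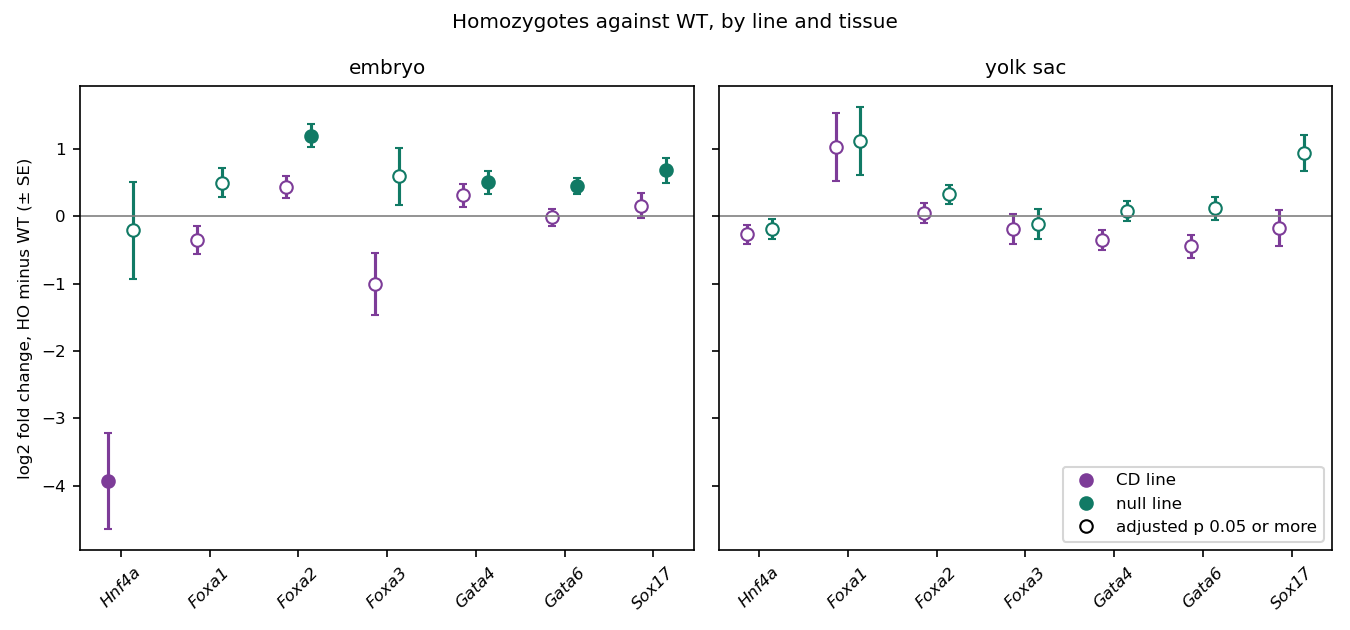
Log2 fold change of HO minus WT (± SE, y axis) for each factor in embryos (left panel) and yolk sacs (right panel), CD line left and null line right of each pair; filled points passed the test. Hnf4a in CD embryos lies at -3.93 and Foxa2 in null embryos at 1.19, and no point is filled in yolk sacs.

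Whether the homozygous effect differed between the tissues was tested directly. In the null line the effect in yolk sac minus that in embryo passed for 1 of the 7, with 10.1% of all genes past the threshold. That gene was Foxa2, at -0.91 (SE 0.234, edgeR adjusted p = 0.019). The call was lost without null embryo WT replicate 2 (-0.76), null embryo HO replicate 1 (-0.85), the null yolk sac labelled WT replicate 1 (-0.87) or null yolk sac HO replicate 2 (-0.76). In the CD line 1 of the 7 passed, with 2.94% of all genes past the threshold. That gene was Hnf4a, at 3.64 (SE 0.704, edgeR adjusted p = 0.0096), lost without CD embryo HO replicate 1 (4.13) or replicate 2 (3.31) and with the term for sex (3.44). Foxa1 was at 1.37 in this test and passed without CD yolk sac HO replicate 1 (1.96).

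Across the 12 embryo libraries, which differ in genotype and line, the genes whose log2 CPM ran closest to Hnf4a were Apom, Vil1 and Sort1 (Pearson r of 0.951, 0.939 and 0.933). For Foxa2 they were Fto, Pard3 and Fam117b (0.976, 0.97 and 0.968), and for Sox17 they were Igf1r, Fnip2 and Efna5 (0.953, 0.95 and 0.949). The nearest to Gata4 were Hcn4, a pacemaker channel gene of the early heart, Prkcd and Rbpms2 (0.975, 0.973 and 0.966), and those nearest to Gata6 were Fn1, Myo1c and Prdm6 (0.963, 0.958 and 0.957). Klhl2 led for Foxa1 (0.912) and Nptn for Foxa3 (0.855). Among the 7 themselves the closest pairs were Foxa2 with Sox17 (0.891) and Gata4 with Gata6 (0.888), while Hnf4a was at -0.103 with Foxa2. Over the 12 yolk sacs the same 2 pairs were at 0.659 and 0.642. There the gene nearest to Hnf4a was Slc43a2 (0.955), and for Sox17 it was Epas1 (0.9), the gene of a hypoxia-inducible factor found in endothelium. For the rest they were Csrnp1 for Foxa1 (0.928), Hexim1 for Foxa2 (0.933), Impact for Foxa3 (0.92), Dram1 for Gata4 (0.897) and Morf4l1 for Gata6 (0.933). These correlations describe shared ordering of 12 libraries, and genotype differences common to many genes enter them.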

How the data were processed

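Messenger RNA was sequenced in 24 libraries of whole embryos and yolk sacs. Per the submitters' processing notes, fastp 0.22.0, HISAT2 2.2.1 with mm10, featureCounts 2.0.1 and DESeq2 1.32.0 were used; the role of each tool and the strand setting are not given in the sources used. The authors deposited raw read counts per gene and FPKM values in 1 table per tissue. The deposited FPKM equalled count over gene length and library total (0 values off by more than a relative 0.001) and are used as levels only.

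Groups and replicate numbers came from the labels. Deposited counts were tested with the quasi-likelihood F-test of edgeR 4.0.16 (R 4.3.3), with TMM scaling, filterByExpr (minimum count 10, minimum total 15) and Benjamini-Hochberg adjustment over all genes tested, at 0.05. Each tissue was fitted with its 12 libraries and 1 coefficient per group (19215 genes in embryos, 17755 in yolk sacs, 6 residual degrees of freedom each). Tissue contrasts used all 24 libraries (20543 genes, 12 degrees of freedom). A fold change is the fitted log2 difference, with its standard error taken from the F statistic. The number of reads limits the precision of scarce genes, and their counts are given where low.

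The members and gene lists were chosen with earlier results of these data known. Named besides the 7 members are Setd2, sex transcripts, for each list and comparison the called genes of at least 1 CPM with the smallest p (4 at most), and the 3 genes of highest Pearson correlation with each member per tissue (log2 of CPM plus 0.5, predicted genes passed over). Krt19, Trf in null embryos and the per-library values of list genes were added after values were seen. Lists are described by counts and medians, without a test of the list. Alternatives were RLE size factors, library totals, no filter, DESeq2 1.42.0, the replicate number as a block, a term for sex (log2 CPM of summed Y-linked transcripts), the compared groups alone, and each library left out; the CD line alone for the tissue contrast was added after seeing the data. The test was also run on simulated counts, whose outcome is not given here and is not used as support. Equal replicate numbers did not pair the samples.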

Additional observations from a re-analysis of the deposited data

Results flagged for a closer look

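The difference of the homozygous effect between lines or tissues was itself tested in 4 results given here, by a contrast of the edgeR fit. For Hnf4a the CD HO effect in yolk sac minus that in embryo was 3.64 on the log2 scale (SE 0.704, edgeR adjusted p = 0.0096). The call was lost with the term for sex (3.44) and without CD embryo HO replicate 1 (4.13) or replicate 2 (3.31). CD HO and CD WT differed in sex in both tissues, in opposite directions. Hnf4a was at 388 and 393 CPM in CD HO yolk sacs against 507 and 435 in CD WT yolk sacs, and at 0.536 and 0.3 CPM in CD HO embryos against 2.93 and 10.1 in CD WT embryos. For Foxa2 the null HO effect in yolk sac minus that in embryo was -0.91 (SE 0.234, edgeR adjusted p = 0.019). This contrast rests on the null yolk sacs labelled WT. Its call was lost in 4 of 8 fits with 1 library left out, where the difference ranged over -1.075 to -0.757 in all 8. Foxa2 was at 40.2 and 32.8 CPM in null HO yolk sacs against 29.7 and 28.8 in the libraries labelled WT, and at 16.9 and 15.5 CPM in null HO embryos against 7.84 and 6.31 in null WT embryos. Setd2 differed by 1.08 for the CD HO effect minus the null HO effect in embryos (SE 0.098, edgeR adjusted p = 0.000721). It differed by 0.71 for the null HO effect in yolk sac minus that in embryo (SE 0.11, edgeR adjusted p = 0.000656), a contrast that rests on the null yolk sacs labelled WT.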

How the results depend on the processing

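No change of a member turned its sign while called. Over all alternatives 1348 member values kept their side of the threshold, 54 lost the call and 33 gained it. The numbers of members called that follow are those that moved by over 1.5 times, or from or to 0. Smaller shifts are not listed: without the filter Foxa1 also passed in null HO over WT embryos (0.475) and Hnf4a in CD HO over HE embryos (-1.459). Without the filter on low counts, the members called (and the share of all genes) were 2 (10.3%) in CD HO over WT embryos, 2 (1.9%) in CD HE over WT embryos, 4 (2.59%) in the CD minus null effect in embryos, 2 (6.18%) in null HO over labelled WT and 2 (7.27%) over HE yolk sacs, 1 (5%) in CD HO over WT and 1 (5.38%) over HE yolk sacs, and 3 (3.41%) in the CD effect in yolk sac minus embryo. DESeq2 called 1 (0.276%) in CD HE over WT embryos, 1 (1.03%) in the CD minus null effect in embryos, 1 (8.77%) in null HO over labelled WT yolk sacs and 1 (7.13%) in CD HO over HE yolk sacs. With the term for sex, 0 (4.65%) were called in CD HO over WT embryos, 1 (15%) in CD HO over HE embryos and 0 (0.389%) in the CD effect in yolk sac minus embryo. Fitting the compared groups alone gave 1 (24.2%) in null HO over WT embryos and 2 (11.2%) in null HO over labelled WT yolk sacs. In CD HO over HE embryos it gave 5 (34.8%): Gata4, Foxa2, Gata6, Hnf4a and Sox17.

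Leaving out 1 library, which leaves 1 sample in a group, changed the number of members called in several comparisons. In embryos these were null HO over WT and over HE, CD HO over HE, CD HE over WT and the CD minus null effect. In yolk sacs they were null HO over HE and CD HO over HE. For yolk sac minus embryo, the WT difference and the null and CD effects changed. The effect sizes of members that crossed the threshold are given above.

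Equal replicate numbers did not pair the samples: differences between replicates 1 and 2 correlated at -0.165 to 0.105 between embryo groups and -0.167 to 0.259 between yolk sac groups. With the number as a block, CD HO over HE embryos had 1 call (21.6% of all genes), and Foxa2 there (0.52) and Foxa1 in null HO over HE embryos (0.62) were lost.

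Counts over all genes moved further. Among alternatives that kept all libraries and moved a count by over 1.5 times, CD HO over WT gave 894 to 1486 genes in embryos (3087 as reported) and 63 to 1662 in yolk sacs (560), CD HO over HE yolk sacs 27 to 1787 (686), null HO over labelled WT yolk sacs 1808 to 2055 (1113), null HO over HE yolk sacs 2416 (1454), and the CD effect in yolk sac minus embryo 80 to 1319 (604). For comparisons with at most 5 genes called, the ranges were 53 to 695 (CD HE over WT embryos), 7 to 164 (CD HE over WT yolk sacs), 2 to 949 and 13 to 122 (CD minus null, embryos and yolk sacs), and 0 to 43 and 2 to 46 (null HE over WT, embryos and yolk sacs). Leaving out 1 library gave 3655 to 6298 in null HO over WT embryos (6288), 3036 to 5895 in null HO over HE embryos (5826), 1272 to 2966 in CD HO over WT embryos, 1711 to 2315 in CD HO over HE embryos (4252), 165 to 602 in null HO over labelled WT, 216 to 736 in null HO over HE, 66 to 1074 in CD HO over WT and 86 to 1212 in CD HO over HE yolk sacs, 985 to 1899 for the null effect (2078) and 166 to 1374 for the CD effect in yolk sac minus embryo, 2 to 849 and 0 to 7 in CD HE over WT embryos and yolk sacs, and 3 to 1048 and 1 to 28 for CD minus null. The causes were not tested. With 2 libraries a group, leaving 1 out assumes that the lone sample varies like the other groups. Hnf4a and Foxa3 in embryos rest on as few as 7 and 8 reads.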
